A study of Mus musculus with 17 samples.

Results

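Platelets carry chemokines, adhesion receptors and RNA made by megakaryocytes, cells that in mice mature in bone marrow and spleen and also in lung. The genes described here are Ppbp, Pf4, Itga2b, Itgb3, Gp9, Gp6 and Treml1, a set of 7 platelet and megakaryocyte genes taken by gene symbol. They were chosen from earlier results of these data, in which Ppbp stood among the larger differences between anti-RGMb and isotype lungs. Of the 7 genes, 6 had a probe set with that gene as its only symbol, among 19751 such genes in all, and each of the 6 had 1 such probe set. Gp6, the collagen receptor, had none in the table used and is not analysed here. Because group differences chose the set, those of its members are a description. The standard errors and intervals given for them describe the precision of the differences. Neither these nor the counts past a threshold support a claim.

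Whole lung RNA of 17 Balb/c mice was measured on Affymetrix Mouse Gene 1.0 ST arrays, with 1 array per mouse. The anti-RGMb group (6 mice) and the isotype group (5 mice) were both sensitized to and challenged with ovalbumin (OVA), a model of allergic airway disease, and treated with a monoclonal antibody to RGMb or with an isotype antibody. The saline group (6 mice) was given saline in place of ovalbumin at both steps, and its labels name no antibody. RGMb is a co-receptor for bone morphogenetic proteins and binds neogenin, and the series title concerns blockade of that signalling hub in allergen-induced airway hyperreactivity. The design text gives 2 replicate sets of mice, called experiments 1 and 2 here, and a mouse was put in a set by the suffix of its title, which fits the numbers that the text gives. Experiment 1 held 3 mice of each group (mice 1, 2 and 3), and experiment 2 held 3 anti-RGMb, 2 isotype and 3 saline mice (mice 1-2, 2-2 and 3-2). The isotype minus saline difference therefore holds both the allergen and the isotype antibody, and the labels name no group with anti-RGMb but no ovalbumin.

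In platelet biology, Ppbp and Pf4 encode chemokines stored in alpha granules, the products of Ppbp acting on neutrophils and that of Pf4 binding heparin. Itga2b and Itgb3 encode the 2 chains of the fibrinogen receptor that links platelets in a clot. Gp9 is a subunit of the receptor for von Willebrand factor, and Treml1 is a receptor kept in alpha granules and brought to the surface on activation. Pf4 RNA is also found in some tissue macrophages, and Itgb3 in several other cell types. In whole lung RNA, fewer platelets or megakaryocytes and less RNA per cell cannot be told apart.

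Array medians of linear intensity were 120.5 to 124.8 in experiment 1 and 362.1 to 386.2 in experiment 2, so levels are read within an experiment and the experiment was a term of the fit. The lowest correlation between arrays of 1 experiment was 0.975 in experiment 1 and 0.968 in experiment 2. The weights that limma gives to arrays were lowest for isotype mouse 2-2 (0.24), anti-RGMb mouse 3-2 (0.26) and isotype mouse 1-2 (0.38). None of the 102 values of the 6 genes lay below the lower quartile of its array. None of the 14 lung markers, such as the surfactant gene Sftpc, did so on any array.

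Ppbp and Pf4 are neighbours on chromosome 5, next to each other in a cluster of CXC chemokine genes. The group mean of Ppbp was lowest in isotype mice, and that of Pf4 was not. The promoters of Ppbp and Pf4 are shown here with those of Gp9 and Itga2b, the other measured members with a match to the motifs searched. The sequences are from RefSeq on GRCm38.p6, 250 bases before to 50 bases after the start that the promoter table gives, which for Gp9 lies inside the annotated span of the gene, read 5′ to 3′ along the gene's strand. Capitals mark letters of a GATA motif (GATA, with A or T before it and A or G after it) or of an ETS motif (GGAAG, with A or C before it), each searched on both strands, and no 2 matches overlap. The Ppbp window is chr5:90768268-90768567 (plus strand), that of Pf4 is chr5:90772185-90772484 (plus strand), that of Gp9 is chr6:87777820-87778119 (plus strand) and that of Itga2b is chr11:102469834-102470133 (minus strand).
Ppbp: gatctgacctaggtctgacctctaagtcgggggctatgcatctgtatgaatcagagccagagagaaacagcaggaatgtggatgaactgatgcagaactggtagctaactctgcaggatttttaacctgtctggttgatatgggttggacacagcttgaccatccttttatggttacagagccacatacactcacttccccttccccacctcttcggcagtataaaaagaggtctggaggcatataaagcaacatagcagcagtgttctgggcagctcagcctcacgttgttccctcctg
Pf4: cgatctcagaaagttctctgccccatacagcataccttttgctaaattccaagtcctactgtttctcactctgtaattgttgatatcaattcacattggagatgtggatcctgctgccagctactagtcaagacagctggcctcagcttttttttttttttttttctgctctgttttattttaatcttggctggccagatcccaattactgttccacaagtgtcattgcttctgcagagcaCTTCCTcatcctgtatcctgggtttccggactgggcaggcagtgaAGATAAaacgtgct
Gp9: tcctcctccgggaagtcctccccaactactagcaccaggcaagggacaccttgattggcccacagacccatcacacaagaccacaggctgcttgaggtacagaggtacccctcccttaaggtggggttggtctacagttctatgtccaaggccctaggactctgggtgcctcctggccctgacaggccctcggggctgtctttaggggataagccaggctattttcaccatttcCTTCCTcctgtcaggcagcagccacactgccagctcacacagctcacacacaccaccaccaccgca
Itga2b: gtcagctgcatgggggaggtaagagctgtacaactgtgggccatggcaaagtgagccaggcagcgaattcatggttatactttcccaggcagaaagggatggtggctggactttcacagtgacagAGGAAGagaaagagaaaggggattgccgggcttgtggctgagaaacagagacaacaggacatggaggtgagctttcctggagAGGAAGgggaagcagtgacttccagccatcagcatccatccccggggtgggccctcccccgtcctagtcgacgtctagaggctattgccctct
GATA1 and the ETS factor FLI1 bind such letters in megakaryocytes, as background to the choice of motifs. Promoter windows were matched for 6 of the 7 genes, Itgb3 being the one with no match. A GATA motif stood in 2 of the 6 windows, an ETS motif in 3 and both in 1, that of Pf4. Among 32851 promoters of the same length, 29.8% held a GATA motif, 46.5% an ETS motif and 12.6% both. In Pf4 the GATA letters lay at 37 to 42 bases after that start and the ETS letters at -9 to -4. The ETS letters of Gp9 lay at -16 to -11 and those of Itga2b at -125 to -120 and at -43 to -38. The Ppbp window held none of these letters, which says nothing of what binds there.

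Ppbp, Gp9 and Treml1 were higher in anti-RGMb than in isotype lungs and lower in isotype than in saline lungs. Ppbp was 2.21-fold higher with anti-RGMb than with isotype, and its level in isotype lungs was 0.369 times that in saline lungs. Gp9 was 1.89-fold higher and Treml1 1.31-fold higher in the first comparison. Itga2b had differences of the same signs that did not pass the threshold, while those of Itgb3 and Pf4 were small. The plot of the 6 genes by mouse shows the values.

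**Figure D1:**
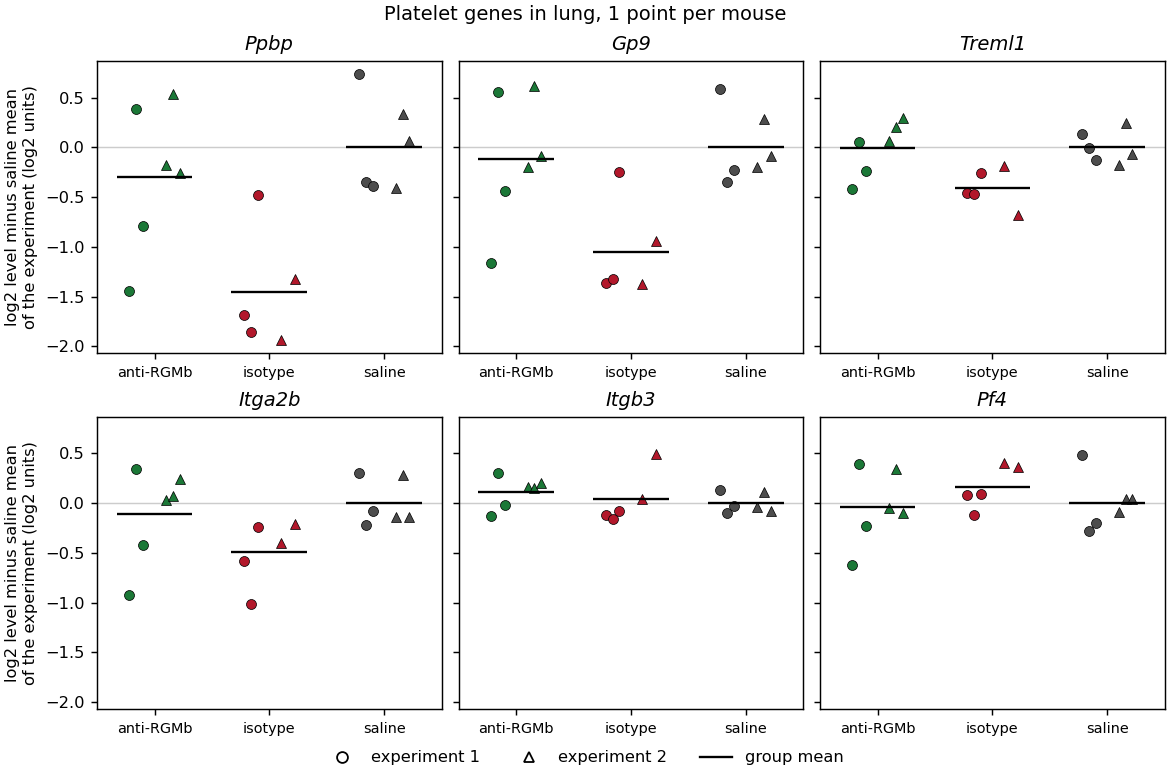
Log2 level of each gene in each mouse minus the mean of the saline mice of the same experiment (vertical axis, log2 units), by group. Circles are mice of experiment 1, triangles mice of experiment 2 and bars group means. For Ppbp the isotype mean lies lowest, with mice at -1.94 to -0.48 and anti-RGMb mice 1 and 3 within that range. For Pf4 the isotype mice lie at -0.12 to 0.40.

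Among the granule chemokines, Ppbp in experiment 1 had log2 levels of 7.87, 9.70 and 8.53 in anti-RGMb mice 1, 2 and 3, of 7.64, 7.47 and 8.84 in isotype mice and of 10.05, 8.97 and 8.93 in saline mice. In experiment 2 it had 11.32, 12.03 and 11.24 in anti-RGMb mice, 9.56 and 10.17 in isotype mice, and 11.09, 11.83 and 11.56 in saline mice. The isotype mice lay below every saline mouse of their experiment, and below every anti-RGMb mouse in experiment 2 but not in experiment 1. There anti-RGMb mice 1 and 3 lay below isotype mouse 3, and anti-RGMb mouse 1 was nearly as low as isotype mice 1 and 2. The log2 difference of anti-RGMb minus isotype was 1.15 ± 0.33 (SE), with 0.72 in experiment 1 and 1.66 in experiment 2. That of isotype minus saline was -1.44 ± 0.33, with -1.34 and -1.63 in the same order. The anti-RGMb and saline groups overlapped in both experiments, and their difference of -0.29 ± 0.32 had a 95% interval of -0.96 to 0.37. The order of the groups in the fit over both experiments was isotype, anti-RGMb and saline from low to high. The anti-RGMb minus saline difference was smaller than its SE, and in experiment 2 it was 0.03.

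Pf4 had log2 levels of 7.61, 8.63 and 8.005 in anti-RGMb mice of experiment 1, 8.31, 8.11 and 8.33 in isotype mice, and 8.72, 7.96 and 8.03 in saline mice. In experiment 2 its levels were 10.36, 10.75 and 10.31 in anti-RGMb mice, 10.81 and 10.77 in isotype mice, and 10.32, 10.45 and 10.45 in saline mice. The groups overlapped in experiment 1, and in experiment 2 both isotype mice lay above all other mice. The log2 difference was -0.22 ± 0.16 for anti-RGMb minus isotype, 0.18 ± 0.16 for isotype minus saline and -0.04 ± 0.15 for anti-RGMb minus saline. All 3 intervals held 0, the first being -0.56 to 0.11, and each describes the precision of a difference.

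Among the receptors, Gp9 in experiment 1 had log2 levels of 7.21, 8.93 and 7.93 in anti-RGMb mice, 7.01, 7.05 and 8.12 in isotype mice, and 8.95, 8.02 and 8.14 in saline mice. In experiment 2 the levels were 9.99, 10.80 and 10.09 in anti-RGMb mice, 8.81 and 9.24 in isotype mice, and 9.98, 10.47 and 10.10 in saline mice. Isotype mice were below all others in experiment 2, and in experiment 1 isotype mouse 3 lay within the range of both other groups. The log2 difference of anti-RGMb minus isotype was 0.92 ± 0.28, with 0.63 and 1.26 in experiments 1 and 2. That of isotype minus saline was -1.04 ± 0.28, and that of anti-RGMb minus saline was -0.12 ± 0.27, with an interval of -0.68 to 0.45. In Gp9 too, the anti-RGMb and saline groups overlapped in both experiments.

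Treml1 in experiment 1 had log2 levels of 7.06, 7.53 and 7.24 in anti-RGMb mice, 7.01, 7.002 and 7.21 in isotype mice, and 7.60, 7.46 and 7.35 in saline mice. In experiment 2 it had 9.23, 9.37 and 9.47 in anti-RGMb mice, 8.98 and 8.49 in isotype mice, and 8.996, 9.41 and 9.10 in saline mice. Every isotype mouse lay below every saline mouse of its experiment, by a small margin for mouse 1-2. The log2 difference of anti-RGMb minus isotype was 0.39 ± 0.12, that of isotype minus saline was -0.40 ± 0.12, and that of anti-RGMb minus saline was -0.01 ± 0.11. The spread of Treml1 among mice of 1 group was narrower than that of Ppbp, with an SD of 0.27 in anti-RGMb mice, 0.19 in isotype mice and 0.16 in saline mice, against 0.74, 0.60 and 0.47 for Ppbp.

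The 2 chains of the fibrinogen receptor differed in their values. Itga2b, the chain made by the megakaryocyte lineage, had log2 levels of 6.57, 7.84 and 7.07 in anti-RGMb mice, 6.91, 6.48 and 7.25 in isotype mice and 7.79, 7.26 and 7.41 in saline mice of experiment 1. In experiment 2 it had 8.93, 8.97 and 9.14 in anti-RGMb mice, 8.50 and 8.69 in isotype mice, and 8.76, 9.18 and 8.76 in saline mice. All isotype mice lay below all saline mice of their experiment, although isotype mouse 3 lay just below the lowest of them, saline mouse 2. The log2 difference was 0.36 ± 0.19 for anti-RGMb minus isotype and -0.46 ± 0.19 for isotype minus saline, and neither passed the threshold used for counts. For anti-RGMb minus saline it was -0.11 ± 0.18, with an interval of -0.48 to 0.27.

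Itgb3, the other chain, had log2 levels of 8.54, 8.96 and 8.65 in anti-RGMb mice, 8.55, 8.51 and 8.59 in isotype mice, and 8.80, 8.56 and 8.63 in saline mice of experiment 1. In experiment 2 it had 10.05, 10.05 and 10.10 in anti-RGMb mice, 9.94 and 10.39 in isotype mice, and 9.86, 10.01 and 9.81 in saline mice. The groups overlapped, apart from anti-RGMb above saline mice in experiment 2. Its log2 differences were 0.06 ± 0.09 for anti-RGMb minus isotype, 0.05 ± 0.09 for isotype minus saline and 0.11 ± 0.09 for anti-RGMb minus saline, and all 3 intervals held 0, the last being -0.08 to 0.30.

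**Figure D2:**
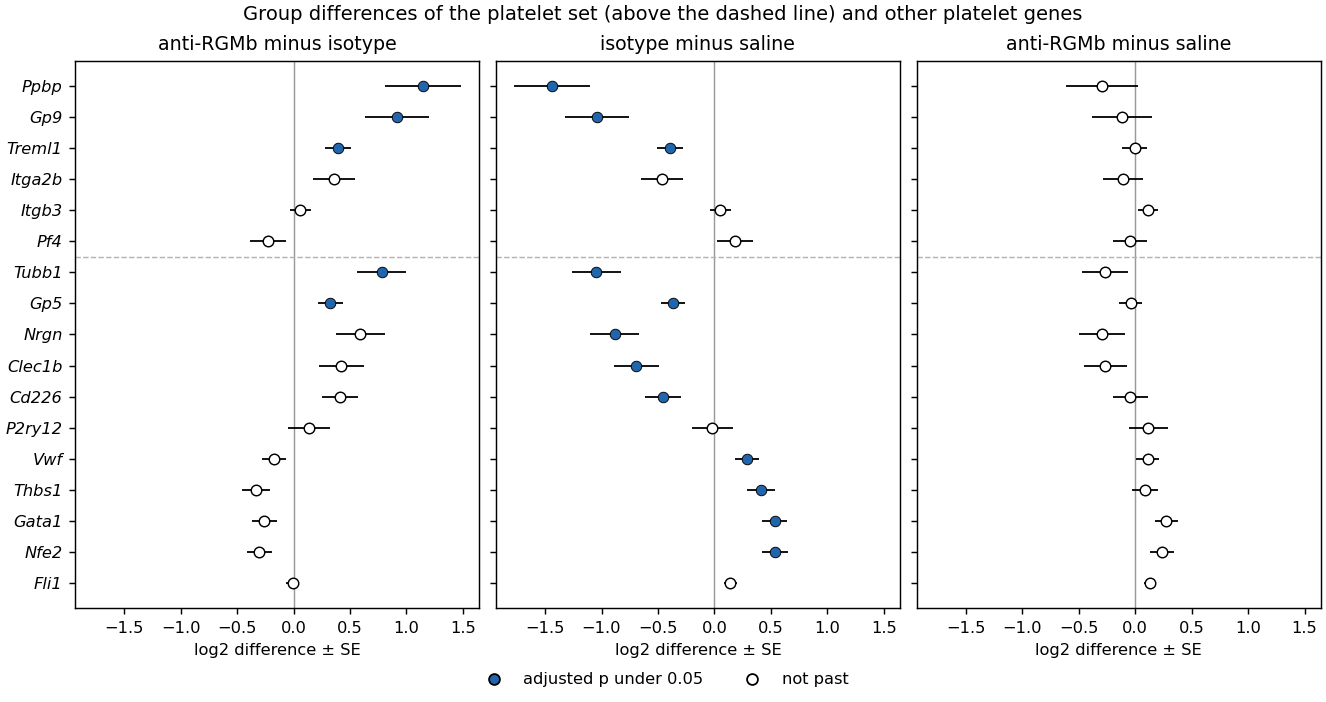
Log2 differences (horizontal axis, log2 units; bars are 1 standard error to each side) for the 6 genes above the dashed line and 11 other platelet genes below it, for 3 comparisons. Filled points passed a limma adjusted p under 0.05. For the upper 6 genes this is a description, since group differences chose them. The same holds for Nrgn and Cd226, picked for likeness to them. Ppbp, Gp9, Treml1, Tubb1 and Gp5 lie right of 0 in the first panel and left of 0 in the second, while Gata1 and Nfe2 lie on the other side of 0 in both.

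With limma's adjusted p under 0.05 over all genes as threshold, 3 of the 6 genes (Ppbp, Gp9 and Treml1) were called higher and 0 lower for anti-RGMb minus isotype, where 11.1% of all genes were called higher and 10.0% lower. For isotype minus saline, 0 were called higher and the same 3 genes lower, where 14.6% of all genes were higher and 21.0% lower. For anti-RGMb minus saline, 0 of the 6 were called, where 4.26% of all genes were higher and 2.24% lower. Since these contrasts chose the set, the counts carry no weight of their own. Both contrasts also use the same isotype arrays, so a low isotype mouse moves both. Without anti-RGMb mouse 2 the first count was 0 of 6, and without isotype mouse 1-2 or isotype mouse 2-2 it was 1 of 6. Ppbp, the largest difference, was called for anti-RGMb minus isotype without 15 of the 17 mice in turn, the exceptions being anti-RGMb mouse 2 and isotype mouse 1-2, each with a difference of 0.97.

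The difference between experiments was not used to choose the genes and was tested as an interaction in limma. None of the 18 interactions of 6 genes and 3 comparisons passed, with a lowest adjusted p of 0.453. Before adjustment 1 of the 18 was under 0.05, the interaction of Itgb3 for isotype minus saline, with a difference between experiments of 0.39 ± 0.17. Over all genes the share called for this interaction was 0.471% for anti-RGMb minus isotype, 0.668% for isotype minus saline and 0% for anti-RGMb minus saline. The Ppbp difference of anti-RGMb minus isotype was larger in experiment 2 in value, with an interaction of 0.95 ± 0.67 that did not pass. With an SE of that size, the test could not settle whether the experiments differed.

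The genes were next compared among mice of 1 group and experiment, a spread that did not choose them. After the mean of each group and experiment was taken off, all 15 pairs of the 6 genes had a positive Pearson correlation over 17 arrays. By exact permutation within groups and experiments with Benjamini-Hochberg adjustment over the 15 pairs, 13 passed by Pearson's r and 12 by Spearman's rho. Pairs drawn from all genes were not tested, so whether these counts are particular to the set is not known. Ppbp and Gp9 were closest, with r of 0.98 and rho of 0.90 (exact permutation p = 0.000514 and 0.000836, adjusted 0.00386 and 0.00418), and r of 0.97 without the 2 arrays farthest from the median of Ppbp. Ppbp and Pf4 had r of 0.86 and rho of 0.83 (exact permutation p = 0.00116 and 0.000772, adjusted 0.00579 and 0.00418), and r of 0.87 without the 2 farthest. So mice with more Ppbp than others of their group also had more Pf4.

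The 2 chains of the fibrinogen receptor, Itga2b and Itgb3, had r of 0.79 and rho of 0.90 (exact permutation p = 0.000193 and 0.000129, adjusted 0.00289 and 0.00193), and r of 0.64 without the 2 farthest. Treml1 was least like the others. Ppbp and Treml1 had r of 0.56 and rho of 0.60 (exact permutation p = 0.0502 and 0.0310, adjusted 0.0537 and 0.0392), and r of 0.38 without the 2 farthest. Itgb3 and Treml1 had r of 0.21 and rho of 0.26 (exact permutation p = 0.655 and 0.531, adjusted 0.655 and 0.531).

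The correlation was higher in experiment 1 than in experiment 2 for each of the 15 pairs, a difference that was not tested. In experiment 1, over 9 arrays, 15 pairs passed by Pearson's r, with r of 0.87 to 0.99, and 6 by Spearman's rho. In experiment 2, with 8 arrays and 72 permutations, 0 of 15 passed by either measure, with r of -0.39 to 0.94. That design allows no exact p below 0.0139. Ppbp and Gp9 had r of 0.94 there and Ppbp and Pf4 r of 0.76, while Ppbp and Treml1 had r of -0.0014. The number of pairs past the threshold was 8 without saline mouse 1, anti-RGMb mouse 1, anti-RGMb mouse 2 or anti-RGMb mouse 3 in turn, all of experiment 1. Anti-RGMb mouse 2 was the highest of its group in experiment 1 for all 6 genes and anti-RGMb mouse 1 the lowest.

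**Figure D3:**
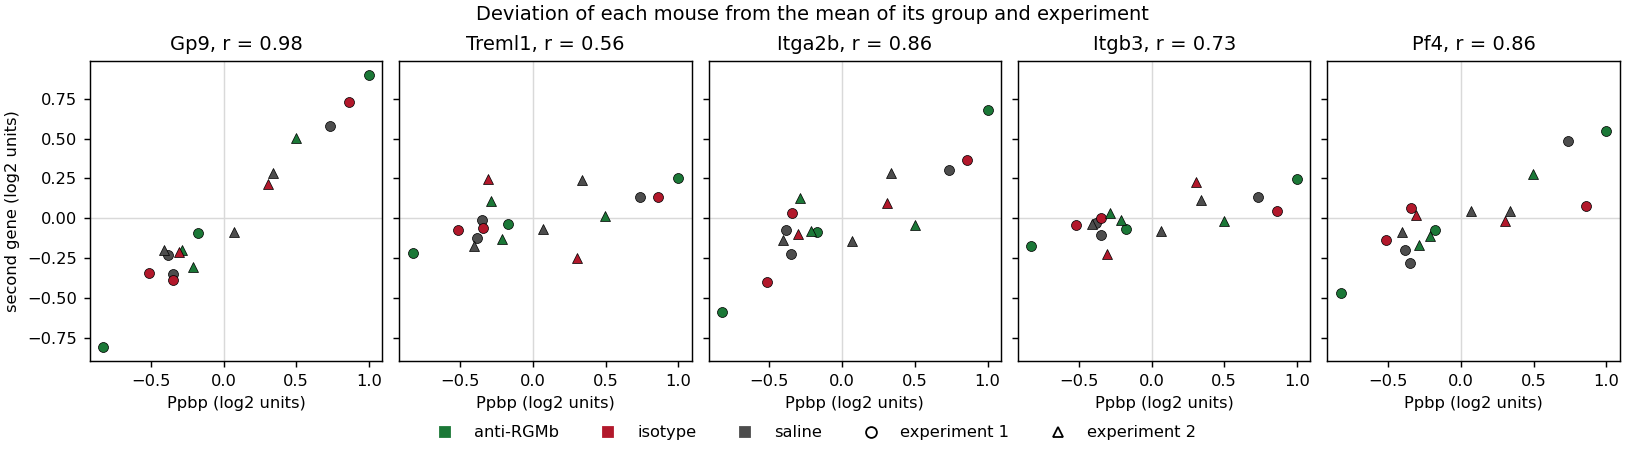
Deviation of each mouse from the mean of its group and experiment, for Ppbp (horizontal axis, log2 units) and 5 other genes (vertical axis, log2 units), with Pearson's r over 17 arrays. Colours are groups, circles experiment 1 and triangles experiment 2. The points lie along a line for Gp9 (r of 0.98) and scatter for Treml1 (r of 0.56).

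The genes most like the set over all arrays, by Pearson's r with the mean of the 6 scaled genes after removal of experiment means, were Npy (0.94), Sh3bgrl2 (0.91), Gp5 (0.91), Mfsd2b (0.90), Nrgn (0.89), Tubb1 (0.87), Cd226 (0.86) and Tmem40 (0.85), each over 17 arrays. With the means of group and experiment removed, they were Tubb1 (0.97), Nrgn (0.96), Rgs18 (0.94), Npy (0.94), P2ry12 (0.92), Sh3bgrl2 (0.90), Gp5 (0.89) and Clec1b (0.89). These values are a description, since the genes were picked for likeness and share the same arrays. Rgs18 and P2ry12 resembled the set among mice of 1 group, but had small differences between groups (0.07 and 0.13 for anti-RGMb minus isotype, 0.03 and -0.02 for isotype minus saline).

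Markers of other cells moved with these groups, as the plot of their summed levels shows. Of all genes, 11.1% were called higher and 10.0% lower for anti-RGMb minus isotype, and 14.6% and 21.0% for isotype minus saline. Of 14 measured macrophage markers, 0 were higher and 11 lower for anti-RGMb minus isotype, and 12 higher and 0 lower for isotype minus saline. Their summed level, relative to the saline mean of the experiment, was 1.34 to 1.52 in anti-RGMb mice, 1.65 to 2.02 in isotype mice and 0.93 to 1.05 in saline mice, with no overlap of groups. An example is Cd163, a scavenger receptor of macrophages, at -2.02 ± 0.20 for anti-RGMb minus isotype (limma adjusted p = 5.04e-06). Neutrophil markers ran the same way only in part, with 0 higher, 5 lower and 9 not past of 14 in the first comparison. For isotype minus saline 7 were higher and 0 lower. Their summed levels were 1.42 to 1.85 in anti-RGMb, 1.92 to 2.36 in isotype and 0.83 to 1.28 in saline mice. The mean log2 level of that list, minus the saline mean, overlapped between groups. It was -0.23 to 0.70 in anti-RGMb, 0.27 to 1.02 in isotype and -0.22 to 0.38 in saline mice. Mast cell and basophil markers had 1 higher and 1 lower of 15 for anti-RGMb minus isotype, and 10 higher and 2 lower for isotype minus saline. Their summed levels were 0.95 to 1.16, 1.04 to 1.38 and 0.97 to 1.03 in anti-RGMb, isotype and saline mice.

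Endothelial, erythroid, heart muscle and lung markers had medians of the same sign as Ppbp in both comparisons. Of 17 endothelial markers, 15 were higher and 0 lower for anti-RGMb minus isotype, and 0 higher and 17 lower for isotype minus saline, with summed levels of 0.83 to 0.93 in anti-RGMb, 0.62 to 0.77 in isotype and 0.96 to 1.02 in saline mice. Of 11 erythroid markers, which stand for blood left in the tissue, 4 were higher and 0 lower in the first comparison, and 0 higher and 4 lower in the second. Their summed levels were 0.89 to 1.24 in anti-RGMb, 0.62 to 1.03 in isotype and 0.88 to 1.09 in saline mice. Klf1 and Rhag of that list lay below the lower quartile on all 17 arrays. Of 15 heart muscle markers, 6 were higher and 0 lower in the first comparison, and 0 higher and 12 lower in the second. Their summed levels were 0.47 to 1.51 in anti-RGMb, 0.31 to 0.69 in isotype and 0.62 to 1.73 in saline mice. Of 14 lung markers, 9 were higher and 1 lower in the first comparison, and 1 higher and 10 lower in the second. Their summed levels were 0.91 to 0.99, 0.82 to 0.86 and 0.97 to 1.03 in anti-RGMb, isotype and saline mice. Of 13 progenitor markers, 3 were higher and 1 lower for anti-RGMb minus isotype and 3 higher and 2 lower for isotype minus saline, with summed levels of 0.93 to 1.01, 0.91 to 1.01 and 0.98 to 1.03 in anti-RGMb, isotype and saline mice. The part of these lists in the group differences of the platelet genes was not tested.

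**Figure D4:**
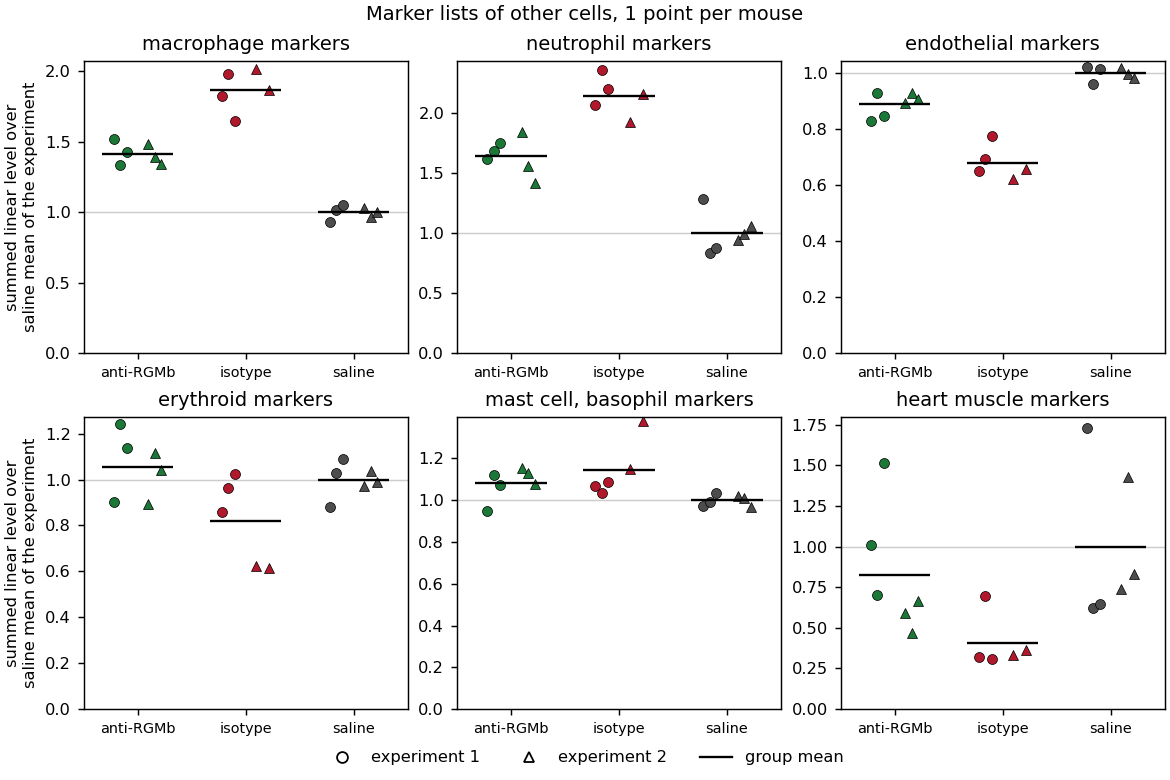
Summed linear level of 6 lists of marker genes in each mouse over the mean of the saline mice of the same experiment (vertical axis, ratio), by group. Circles are mice of experiment 1, triangles mice of experiment 2 and bars group means. Isotype mice lie highest for macrophage markers (1.65 to 2.02) and lowest for endothelial markers (0.62 to 0.77).

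The 6 genes were set against the mean log2 level of each of these 8 lists among mice of 1 group and experiment, 48 relations chosen after values were seen. By exact permutation with Benjamini-Hochberg adjustment, 5 passed by Pearson's r and 4 by Spearman's rho, all with macrophage markers and all negative, and Itgb3 passed by the first measure only. Ppbp had r of -0.83 and rho of -0.87 with macrophage markers (exact permutation p = 0.000836 and 0.000643, adjusted 0.0185 and 0.0301), and r of -0.79 without the 2 farthest arrays. Pf4 had r of -0.58 and rho of -0.68 (exact permutation p = 0.00939 and 0.0150, adjusted 0.0644 and 0.0903), and did not pass. Within experiments, the r of Ppbp with macrophage markers was -0.88 in experiment 1 and -0.61 in experiment 2, and neither passed after adjustment (exact permutation, adjusted 0.0741 and 0.711). With erythroid markers Ppbp had r of 0.22 and rho of 0.28 (exact permutation p = 0.460 and 0.328, adjusted 0.669 and 0.563). Treml1 had r of 0.77 and rho of 0.82 with erythroid markers (exact permutation p = 0.0143 and 0.00688, adjusted 0.0843 and 0.0617), r of 0.67 without the 2 farthest arrays, and r of 0.53 in experiment 1 and 0.94 in experiment 2.

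Other genes known from platelets did not move as 1 group. Of 103 on 5 lists, 92 were measured. For anti-RGMb minus isotype, 27 were higher, 24 lower and 41 not past the threshold, where 11.1% of all genes were higher and 10.0% lower. The median log2 difference was 0.06, against 0.03 over all genes. For isotype minus saline, 36 were higher, 38 lower and 18 not past, where 14.6% of all genes were higher and 21.0% lower. The median was -0.04, as over all genes. For anti-RGMb minus saline, 22 were higher, 4 lower and 66 not past, where 4.26% of all genes were higher and 2.24% lower. The median was 0.01, and -0.01 over all genes. In each comparison a larger share of these genes than of all genes was called, and the lists were chosen with earlier results known. Selp, Gp1ba and Gp1bb had none in the table used and were not analysed here.

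Among the genes taken by the naming rule, Tubb1, the tubulin of the platelet's marginal band, had log2 levels of 7.12, 8.48 and 7.79 in anti-RGMb mice, 7.21, 6.99 and 7.87 in isotype mice and 8.66, 8.14 and 8.09 in saline mice of experiment 1. In experiment 2 it had 9.96, 10.24 and 9.96 in anti-RGMb mice, 8.74 and 8.97 in isotype mice, and 9.85, 10.33 and 10.08 in saline mice. Isotype mice lay below all saline mice in both experiments, and below all anti-RGMb mice in experiment 2. Tubb1 rose by 0.78 ± 0.22 for anti-RGMb minus isotype (limma adjusted p = 0.0142, higher in both experiments) and fell by 1.05 ± 0.22 for isotype minus saline (-1.05, adjusted p = 0.000837). Without isotype mouse 1-2 the first difference no longer passed (limma adjusted p = 0.0529). Gp5, a subunit of the same receptor as Gp9, rose by 0.33 ± 0.11 (limma adjusted p = 0.0396), past the threshold without 10 of the 17 mice in turn, with differences of 0.27 to 0.38. It had -0.37 ± 0.11 for isotype minus saline (limma adjusted p = 0.0124).

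Clec1b, the receptor for podoplanin, had 0.42 ± 0.20 for anti-RGMb minus isotype (limma adjusted p = 0.154) and -0.69 ± 0.20 for isotype minus saline (0.0109). It passed in the second comparison only, a difference between contrasts that was not tested. Nrgn, Cd226 and P2ry12 were named for likeness to the set. For Nrgn and Cd226 a measure of likeness held the group differences, so their values are a description without p. Nrgn, a calmodulin-binding protein found in platelets, had 0.59 ± 0.22 and -0.88 ± 0.22 for the same comparisons. Cd226, an adhesion receptor also on lymphocytes, had 0.41 ± 0.16 and -0.46 ± 0.16. P2ry12, the ADP receptor, was picked by likeness among mice of 1 group and experiment. It had 0.13 ± 0.18 (limma adjusted p = 0.664) and -0.02 ± 0.18 (0.961). None of these 6 genes, Tubb1 and Gp5 included, passed for anti-RGMb minus saline, where their differences ran from -0.29 for Nrgn to 0.12 for P2ry12.

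The granule proteins Vwf and Thbs1 and the factors Gata1 and Nfe2 had values of the other sign, while their lists held genes called in both directions. Vwf, von Willebrand factor, which endothelium also makes, had -0.18 ± 0.11 for anti-RGMb minus isotype (limma adjusted p = 0.278) and 0.29 ± 0.11 for isotype minus saline (0.0430), that value past the threshold without 7 of 17 mice in turn. Thbs1, thrombospondin of alpha granules, had -0.33 ± 0.12 (0.0678) and 0.42 ± 0.12 (0.0134). Gata1, a transcription factor of megakaryocytes, red cells, mast cells and eosinophils, had -0.26 ± 0.11 (0.107) and 0.53 ± 0.11 (0.000753). Nfe2, needed for platelet release, had -0.30 ± 0.11 (0.0650) and 0.54 ± 0.11 (0.000928). Fli1, an ETS factor also of endothelium, had -0.01 ± 0.06 (0.948) and 0.14 ± 0.06 (0.0630).

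By list, receptors had 7 higher and 5 lower of 19 for anti-RGMb minus isotype (median 0.13), granule genes 6 and 4 of 18 (median 0.01), signalling genes 5 and 11 of 23 (median -0.26), cytoskeletal genes 3 and 1 of 13 (median 0.19) and factors 6 and 3 of 19 (median 0.06). For isotype minus saline the counts were 6 higher and 10 lower for receptors (median -0.15), 9 and 7 for granule genes (0.16), 12 and 7 for signalling (0.27), 2 and 6 for the cytoskeleton (-0.25) and 7 and 8 for factors (-0.10). Over all genes the shares were 11.1% higher and 10.0% lower in the first comparison, and 14.6% and 21.0% in the second. The genes with the smallest p in the first comparison were Ptgir, the prostacyclin receptor (-0.74 ± 0.07, limma adjusted p = 2.31e-06), Igf1, a growth factor (-1.01 ± 0.10, 3.64e-06), Tbxas1, thromboxane synthase (-0.81 ± 0.08, 3.64e-06), Cd84, a SLAM receptor (-0.80 ± 0.08, 5.04e-06), Syk, a kinase of receptor signalling (-0.63 ± 0.07, 1.57e-05), and Meis1, a homeobox factor (0.47 ± 0.06, 3.24e-05). For isotype minus saline the first 5 were higher, from 1.26 for Syk to 2.02 for Igf1, as was Lcp2, an adaptor of SYK signalling, at 1.36 ± 0.08 (limma adjusted p = 6.06e-10). Ptgir, Igf1, Tbxas1, Cd84, Syk and Lcp2 are all known in macrophages or other leukocytes too. The macrophage list ran the same way, and the part of such cells in these differences was not tested. Alox12, platelet lipoxygenase, and Mmrn1, a granule protein that endothelium also makes, were picked after their values were seen, and had 0.73 ± 0.21 and 0.57 ± 0.15 for anti-RGMb minus isotype and -1.08 ± 0.21 and -0.75 ± 0.15 for isotype minus saline.

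The other CXC chemokine genes listed differed from Ppbp in sign. Of 8 CXC genes, 0 were higher, 3 lower and 5 not past for anti-RGMb minus isotype, and 7 higher and 0 lower for isotype minus saline. Not all of them are close to Ppbp and Pf4. Cxcl9 and Cxcl10 start at bases 92321331 and 92346638 of chromosome 5, against 90772435 for Pf4, and Cxcl11 was not placed. Cxcl5, a neutrophil chemokine beside Ppbp, had log2 levels of 6.34, 5.87 and 6.27 in anti-RGMb mice, 7.22, 6.83 and 6.76 in isotype mice and 5.34, 5.48 and 5.53 in saline mice of experiment 1. In experiment 2 it had 7.18, 6.66 and 7.32 in anti-RGMb mice, 8.18 and 8.85 in isotype mice, and 6.38, 6.79 and 6.47 in saline mice. All isotype mice lay above all others of their experiment. Cxcl5 fell by 1.08 on the log2 scale for anti-RGMb minus isotype (-1.08 ± 0.16, limma adjusted p = 0.000132) and rose by 1.69 ± 0.16 for isotype minus saline (2.33e-07). Cxcl3, beyond Pf4 on the other side, had -1.18 ± 0.21 (limma adjusted p = 0.000564) and 1.76 ± 0.21 (3.2e-06), and its 6 saline values lay below the lower quartile of their arrays, as did 4 of the 6 saline values of Cxcl5. For anti-RGMb minus saline, 3 of the 8 were higher, Cxcl5 by 0.61 ± 0.15, Cxcl2 by 0.87 ± 0.18 and the interferon-induced Cxcl9 by 1.21 ± 0.28.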

How the data were processed

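The authors deposited intensity values per probe set on a linear scale, and RMA is the tool that the submitters' processing notes name, its version not given in the sources used here. Of 24679 probe sets, 21354 had 1 symbol, 1275 several and 2050 none. Those with 1 symbol were used, and the brightest was kept for 893 genes with more than 1, which left 19751 genes. The log2 was taken with no constant. The number of arrays limits the precision.

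limma 3.58.1 (R 4.3.3) fitted group means plus an experiment term to each gene (eBayes, prior degrees of freedom 4.32). The threshold was an adjusted p under 0.05 (Benjamini-Hochberg, all genes, two-sided). A fit with separate group means in each experiment gave within-experiment differences and interactions. Values after ± are standard errors unless SD is written. Covariation used residuals and 15552 exact permutations within groups and experiments. Scripts were tested on simulated data.

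The members and all gene lists were chosen with earlier results of these data known. The relations with marker lists and the covariation by experiment were added after values were seen. Named by rule were the members, Vwf, Selp, Gata1, Gp1ba, Gp1bb, Gp5, Clec1b, Nfe2, Fli1, Tubb1 and Thbs1 (1 further gene of the rule is not reported here), for each comparison up to 6 other platelet genes with the smallest p among those past the threshold with 1 sign in both experiments, the 8 genes most like the set by each of 2 measures, measured chemokine and partner genes, and up to 4 markers of each list. The remaining names, Alox12, Mmrn1, Klf1 and Sftpc, were picked outside this rule, after values were seen. Symbols came from the platform annotation, and promoters from RefSeq. Same-numbered mice of different groups in 1 experiment did not deviate together (16 pairs, r of -0.60 to 0.30, 3 over 0.1), and the labels tie no mice together, so mice were treated as unpaired. Alternatives were quantile normalization, a constant of 16, no dim genes, mean of probe sets, other experiment terms, a trend, array weights, fewer groups, a replicate block and each mouse left out.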

Additional observations from a re-analysis of the deposited data

How the results depend on the processing

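No member difference past the threshold changed sign in any of 29 settings. Of 522 alternative values, 489 kept their side of the threshold, 27 lost it and 6 gained it. Only those of Ppbp, Gp9 and Treml1 for anti-RGMb minus isotype and isotype minus saline could lose it. Most of the 522 belong to differences never past in the main fit, and 306 leave out 1 mouse. The 489 therefore does not measure how stable the calls were. Without a term for the experiment, the members called were 0 for anti-RGMb minus isotype and 0 for isotype minus saline (3 each with the term), and the other platelet genes called were 0, 0 and 0 for anti-RGMb minus isotype, isotype minus saline and anti-RGMb minus saline (51, 74 and 26 with the term). That fit leaves the level difference between experiments in the spread and gave medians of all genes of 0.19 and -0.20 in the first 2 comparisons, against 0.03 and -0.04 with the term. In experiment 1 alone the members called were 0 and 1 in the first 2 comparisons, and the other platelet genes 12 for anti-RGMb minus isotype and 17 for anti-RGMb minus saline. In experiment 2 alone the members called were 1 for isotype minus saline and the other platelet genes 12 for anti-RGMb minus saline. These counts come from the fit with separate group means in each experiment, which holds all 17 mice, but each such difference compares fewer mice. With each mouse left out, the members called ran from 0 to 4 for anti-RGMb minus isotype, and pairs of members that covaried ran from 8 to 15 of 15. The covariation by experiment, added after the data were seen, gave 15 pairs in experiment 1 by Pearson's r (6 by Spearman's rho) and 0 in experiment 2. With the mouse number as a replicate block, 2, 3 and 0 members and 40, 72 and 21 other platelet genes were called, and Treml1 had 0.38 for anti-RGMb minus isotype, no longer past. Itga2b passed for anti-RGMb minus isotype without anti-RGMb mouse 1 (0.51). Causes were not tested. The number of isotype mice, 5 in all and 2 in experiment 2, limits the precision.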

Other observations

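Partners of platelets were also measured. Of 16 such genes, 1 was higher and 4 lower for anti-RGMb minus isotype, 5 higher and 2 lower for isotype minus saline, and 3 higher and 0 lower for anti-RGMb minus saline. The shares of all genes were 11.1% and 10.0%, 14.6% and 21.0%, and 4.26% and 2.24% in the same order. Vtn, vitronectin, a plasma and matrix ligand of integrins, had 0.71 ± 0.14 for anti-RGMb minus isotype (limma adjusted p = 0.00164) and -0.96 ± 0.14 for isotype minus saline (3.33e-05). Selplg, the leukocyte ligand of P-selectin, had -0.39 ± 0.06 (limma adjusted p = 0.000116) and 1.02 ± 0.06 (4.96e-10), and Fn1, fibronectin, had -0.43 ± 0.14 (0.0353) and 1.01 ± 0.14 (1.68e-05). The collagen genes Col1a1 and Col3a1 had -0.40 ± 0.12 and -0.43 ± 0.12 in the first comparison (limma adjusted p = 0.0219 and 0.0128). The fibrinogen genes Fga, Fgb and Fgg passed in no comparison and lay below the lower quartile of the array in nearly all mice. Cxcr2, the receptor for the products of Ppbp on neutrophils, had -0.20 ± 0.27 for anti-RGMb minus isotype (0.653) and 0.60 ± 0.27 for isotype minus saline (limma adjusted p = 0.0995).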
